A study of Homo sapiens with 2 samples.

Results

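The genes of the p53 pathway described here are 30 named genes: the regulators that feed back on p53 and the best known genes that p53 switches on. Every probe set that the array annotation assigns to exactly 1 gene, and to 1 of these genes, was taken. This gave 69 probe sets for 27 of the 30 genes, of 19775 genes on the array with such a probe set. The expression of BTG2 and FDXR was not analysed here. BBC3 is represented by a probe set that the annotation gives to 3 genes together, and it stayed out of the counts. The gene of p53 itself was not analysed here.

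The cells were C4-2, an established human prostate cancer line of the LNCaP lineage, which is castration resistant. They were grown in RPMI medium with serum and transfected with RNAiMax, a lipid reagent, with either the microRNA miR-99a or si-GL2, a control siRNA named after a luciferase reporter. RNA was taken after 48 h and measured on Affymetrix arrays. Each of the 2 groups holds 1 array of 1 line, both groups were transfected, and no untransfected culture was used here. No difference below therefore has a replicate error or a p-value, and the effect of miR-99a, the effect of si-GL2 and the variation between cultures cannot be told apart.

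p53 is a transcription factor that is kept scarce in unstressed cells, because the ubiquitin ligase MDM2 marks it for destruction and MDM4 blocks its activity. DNA damage and other stresses release it from this control, and it then raises genes that halt the cell cycle, repair DNA, adjust metabolism or kill the cell, together with MDM2 itself. The LNCaP lineage is known to carry wild-type p53. mRNA levels of targets are thus often read as a sign of p53 activity, although many of these genes also answer to other factors.

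The agent that distinguishes the cultures is shown first. The labels do not say which arm of miR-99a was transfected; the 5p arm is the one commonly studied and is printed from RefSeq (GRCh38.p14, chr21:16539101-16539122, plus strand) beside the other family members, because all 3 share the seed by which a microRNA recognises its targets. Each sequence reads from 5′ to 3′, and the capitals mark the seed, bases 2 to 8. hsa-miR-100-5p differs from hsa-miR-99a-5p at 1 of 22 bases and hsa-miR-99b-5p at 4, and 0 of these differences lie in the seed.
hsa-miR-99a-5p: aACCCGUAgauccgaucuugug
hsa-miR-99b-5p: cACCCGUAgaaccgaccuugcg
hsa-miR-100-5p: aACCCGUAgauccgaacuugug

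The p53 pathway genes differed between the arrays in both directions, around a centre near 0, and AEN and CDKN1A were highest after miR-99a. A difference is always log2(signal + 16) after miR-99a minus the same after si-GL2, with 16 added so that dim probe sets do not give large ratios; folds are on this scale too, which understates the change of dim genes. A gene was represented by its brightest probe set and called expressed when the mean of its values over both arrays reached the median of all probe sets, a signal of 47.2. Of the 27 genes, 25 were expressed; PLK3 and SPATA18 were not. Of the 25, 2 were 1.5-fold higher or more on the miR-99a array (8%, against 1.21% of all 12218 expressed genes), namely AEN and CDKN1A. None was 1.5-fold lower (0 of 25, against 2.90% of expressed genes). At 2-fold the members gave 0 in either direction, where 0.139% of expressed genes were higher and 0.336% lower. The members' median difference was 0.02 and that of all expressed genes -0.03; 14 members lay above 0 and 11 below. Their differences ranged from -0.36 to 0.81, with an SD over genes of 0.32 against 0.26 for all expressed genes. In such bulk RNA, a change in every cell and a change in a part of the cells cannot be told apart.

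**Figure D1:**
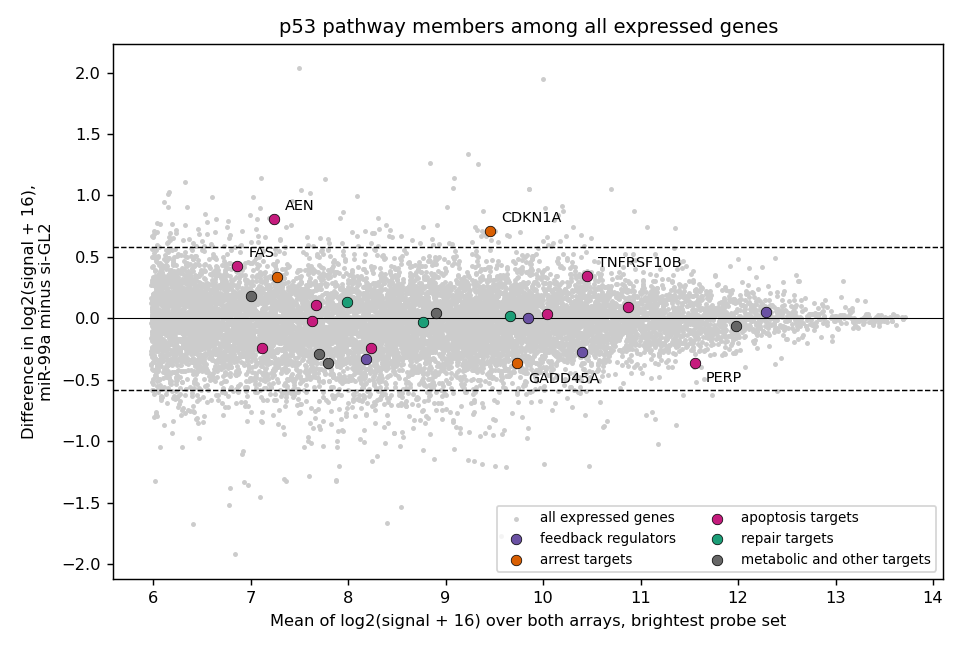
Difference in log2(signal + 16), miR-99a minus si-GL2, against the mean level over both arrays, for the brightest probe set of each expressed gene; grey points are all 12218 expressed genes, coloured points are the 25 expressed p53 pathway members by role, and dashed lines mark 1.5-fold. AEN and CDKN1A lie above the upper line, and no member lies below the lower one.

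Counted by probe set, 49 of the 69 reached the level limit, 26 above 0 and 23 below, with a median of 0.02 against -0.02 for all such probe sets. Past 1.5-fold were 4 on the higher side (1.53% of 22401 probe sets on the array were) and 1 on the lower side (2.76%). The 4 were the single probe sets of AEN and CDKN1A and a pair for FAS. The 1 lower probe set belonged to MDM4. For 11 members a second probe set reached the limit, and its difference had the same sign as that of the brightest in 6. Of these 11, 1 was 1.5-fold higher (1.71% of all second probe sets were) and 0 lower (2.62%). Over all 5842 genes with several such probe sets, the median SD between the probe sets of a gene was 0.13. The 18 hybridisation spikes, added alike to both samples, lay between -0.12 and 0.06.

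**Figure D2:**
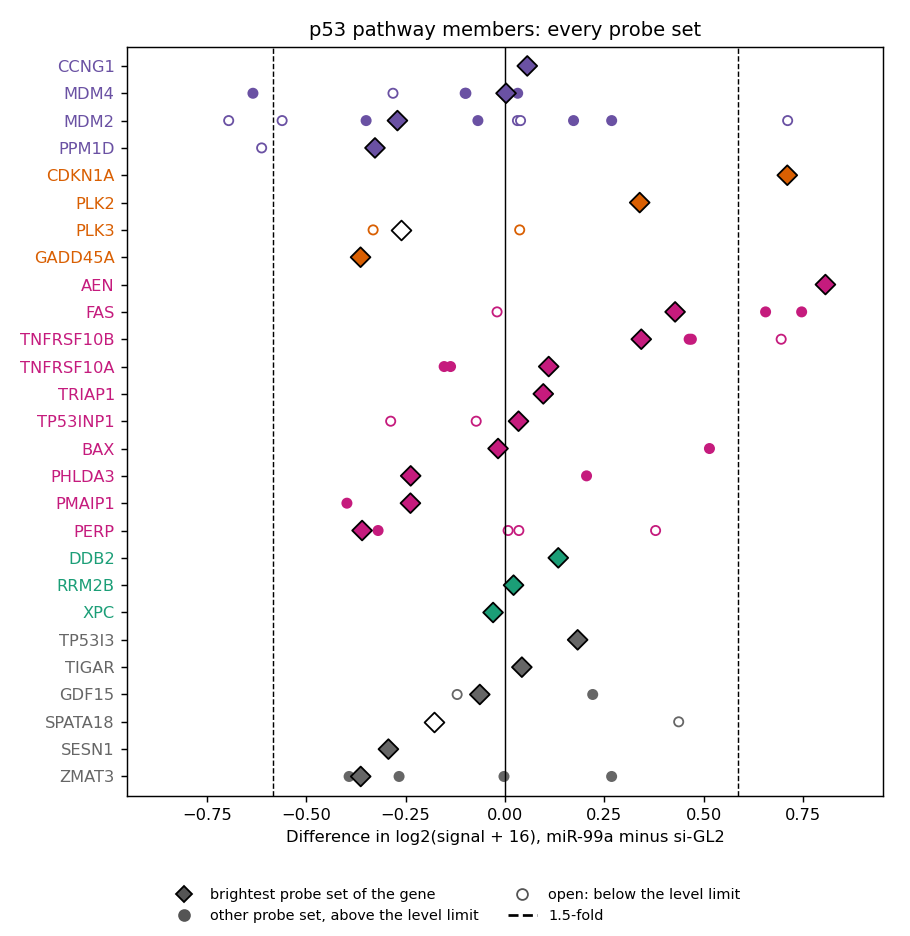
Difference in log2(signal + 16), miR-99a minus si-GL2, for each of the 69 probe sets of 27 p53 pathway genes, sorted by role and then by the brightest probe set; diamonds are the brightest probe set of a gene, circles the others, open symbols lie below the level limit, and dashed lines mark 1.5-fold. FAS and TNFRSF10B have all probe sets above the limit to the right of 0, PERP and PMAIP1 to the left, and those of MDM2, BAX and ZMAT3 fall on both sides.

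The first role is feedback on p53 itself. The 4 feedback regulators had a median difference of -0.13. None was past 1.5-fold in either direction (1.21% of expressed genes were higher and 2.90% lower). MDM2, which is both the main brake on p53 and one of its targets, gave a signal of 1216 with miR-99a and of 1470 with the control by its brightest probe set (-0.27). MDM2 has 10 probe sets, of which 5 reached the limit, and these lay between -0.35 and 0.27, with 2 above 0 and 3 below. The direction for MDM2 therefore depended on the probe set.

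MDM4, the relative of MDM2 that masks the activating domain of p53, was 908 against 906 by its brightest probe set, a difference of 0.0025. Its second probe set was 862 against 843. A dimmer one was 86.7 against 143, a difference of -0.63, and was the only probe set of the 49 that lay past 1.5-fold on the lower side. Among the other MDM4 probe sets above the limit, the remaining 2 were both at -0.10. PPM1D, the phosphatase WIP1 that switches damage signalling off, was 244 against 310 (-0.33), and its dim probe set was at 22.7 against 43.1. CCNG1, cyclin G1, which directs a phosphatase to MDM2, was 5095 against 4901 (0.06). Of these 4 genes, PPM1D alone lay on the same side of 0 by several probe sets, both lower. Only 1 of this pair reached the limit, and CCNG1, with 1 probe set, could not be judged this way.

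The second role is cell cycle arrest, where 3 of the 4 genes with a probe set were expressed. CDKN1A encodes p21, the inhibitor of cyclin-dependent kinases through which p53 holds cells in G1. Its signal was 883 with miR-99a and 534 in the control, which is 0.71 on the log2 scale or 1.64-fold, and 67 of 12218 expressed genes had a larger one. CDKN1A is measured by 1 probe set. PLK2, a polo-like kinase induced by p53 and by serum, was 158 against 121 (0.34). GADD45A, a small stress protein that acts in arrest and in repair, went the other way, at 734 against 949 (-0.36). Each of these 3 genes was measured by 1 probe set, and their median of 0.34 rests on 3 values of both signs; with PLK3 included it was 0.04. PLK3, another polo-like kinase, stayed below the limit with all 3 probe sets, the brightest at 36.3 against 46.6.

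The third and largest role is cell death, with 10 expressed genes, a median of 0.07, 6 genes above 0 and 4 below. AEN, an exonuclease that p53 induces and that digests DNA in dying cells, was 184 against 98.6, a difference of 0.81 or 1.75-fold. AEN was the highest member, with 39 expressed genes above it, and is also measured by 1 probe set. Its level lies between the median and the 75th percentile of all probe sets (a signal of 213), where 1.67% of genes were 1.5-fold higher and the SD over genes was 0.29; above that percentile these were 0.943% and 0.25. The probe sets of both AEN and CDKN1A carry the _s_ mark, which Affymetrix gives to probe sets that match several transcripts; without probe sets marked _s_ or _x_, 15 members reached the limit and 0 were 1.5-fold higher, where 1.27% of 9422 genes were.

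The death receptors carry the signal of extracellular ligands to the caspases. FAS, the receptor of FAS ligand, was 119 with miR-99a and 84.5 in the control by its brightest probe set (0.43, with 381 expressed genes higher). Its 3 other probe sets above the limit were 75.8 against 42.3, 68.2 against 46.8 and 72.4 against 36.7. All 4 were higher after miR-99a, by between 0.42 and 0.75, and 2 of them passed 1.5-fold; the fifth, below the limit, was 14.7 against 15.1. The mean over the 4 was 0.56, short of 1.5-fold (0.58 on this scale). All 4 carry the _s_ or the _x_ mark, the second of which is given to probe sets that may bind unrelated or related transcripts.

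TNFRSF10B, the TRAIL receptor DR5, was 1559 against 1226 (0.34), 397 against 282 and 367 against 262 by its 3 probe sets above the limit, that is, between 0.34 and 0.47. Its dim probe set was 25.7 against 9.76. All 4 lay on the higher side and 0 of the 3 above the limit passed 1.5-fold. TNFRSF10A, the TRAIL receptor DR4, was 196 against 180 (0.11) by the brightest probe set and between -0.15 and -0.14 by the other pair, so its sign was not settled. These receptors are close relatives, and 2 of the probe sets for TNFRSF10B have the _x_ mark.

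The other cell death genes gave values of both signs. BAX, which forms pores in the outer mitochondrial membrane, was 180 against 183 by one probe set (-0.02) and 166 against 112 by the other (0.51). PMAIP1, the BH3-only protein NOXA, was 261 against 311 (-0.24) and 221 against 296 (-0.40), lower by both. PERP, a membrane protein that p53 and its relative p63 induce and that also builds desmosomes, was 2644 against 3397 (-0.36) and 968 against 1212 (-0.32), lower by both probe sets above the limit; its 3 dim probe sets lay above 0. PHLDA3, which competes with AKT for membrane lipids, was 112 against 135 (-0.24) by one probe set and 95.4 against 80.7 (0.21) by the other. TP53INP1, a cofactor of p53 in stress, was 1051 against 1026 (0.03). TRIAP1, a small protein that protects cells from apoptosis, was 1924 against 1799 (0.10). Within the cell death genes, the receptors FAS and TNFRSF10B were on one side by every probe set above the limit, and PMAIP1 and PERP on the other.

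**Figure D3:**
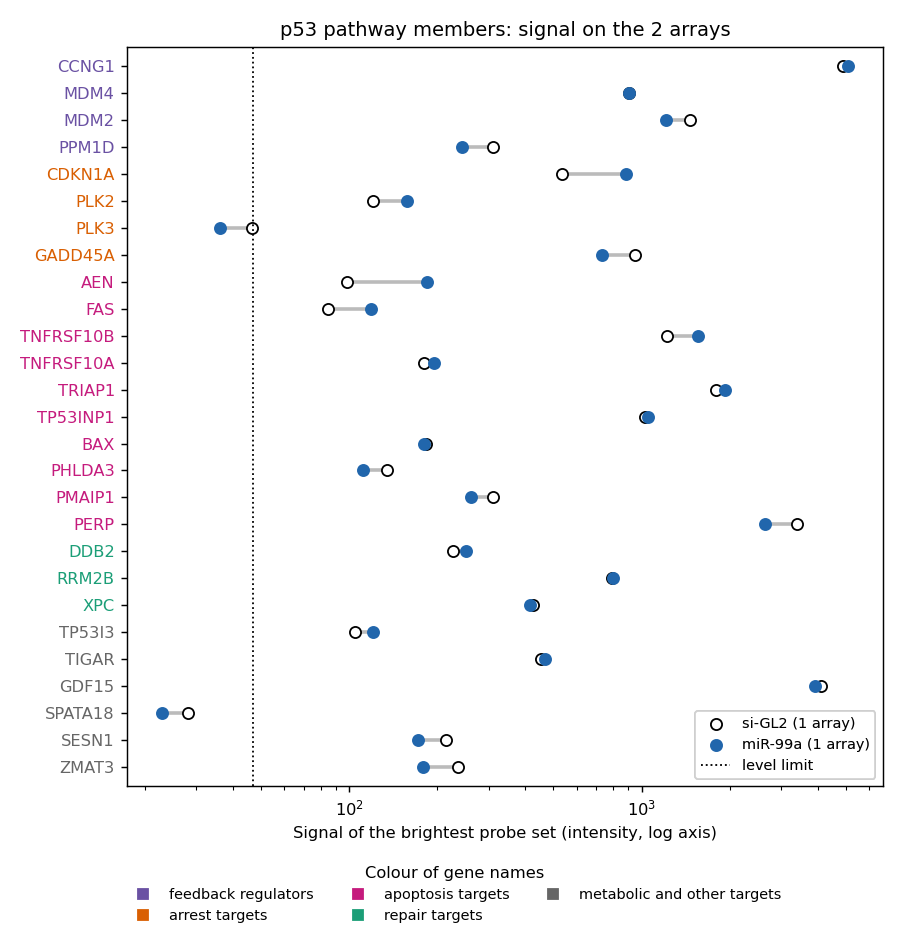
Signal of the brightest probe set of 27 p53 pathway genes on a log axis, open circles for the si-GL2 array and blue circles for the miR-99a array, with gene names coloured by role and the level limit as a dotted line. The widest gaps belong to AEN (184 against 98.6) and CDKN1A (883 against 534), while CCNG1, MDM4, RRM2B and XPC overlap or nearly so.

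A further role is DNA repair, and here the arrays were nearly alike. DDB2 and XPC recognise damaged bases for nucleotide excision repair, and RRM2B is the p53-induced subunit of the enzyme that makes deoxynucleotides. DDB2 was 251 with miR-99a against 227 in the control (0.13), RRM2B was 802 against 790 (0.02) and XPC was 416 against 425 (-0.03). Each has 1 probe set, and their median was 0.02. RRM2B and XPC lie within the range of the hybridisation spikes and DDB2 lies above it. The spikes were added alike to both samples, so a value above their range need not exceed the variation between cultures. The differences of DDB2, RRM2B and XPC were all smaller in size than the SD over all expressed genes, 0.26.

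The last role gathers metabolic and other targets, of which 5 were expressed, with a median of -0.06. None was past 1.5-fold in either direction (1.21% of expressed genes were higher and 2.90% lower). GDF15, a secreted stress cytokine, was 3927 against 4104 (-0.06), and a much dimmer probe set was 79.6 against 66.1 (0.22). TIGAR, which lowers glycolytic flux, was 468 against 454 (0.04). TP53I3, a quinone oxidoreductase that p53 induces, was 121 against 105 (0.18). SESN1, a sestrin that restrains mTOR complex 1, was 172 against 214 (-0.29).

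ZMAT3, an RNA-binding protein through which p53 influences splicing, has 5 probe sets, all above the limit. Those with the highest level are nearly equal in brightness and opposed, 179 against 235 (-0.36) and 226 against 185 (0.27), and quantile normalization moved ZMAT3 from the first to the second of these values, to 0.32. Of the 5, 4 lay below 0 and 1 above, with a mean of -0.15. SPATA18, which acts in mitochondrial quality control, was below the limit at 22.9 against 28.1 and 30.1 against 18.0.

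The wider pathway was read from 3 further lists. The upstream list includes kinases, acetylases, deubiquitinases and ubiquitin ligases that set the level and activity of p53, together with proteins of other kinds. Of 30 listed, 26 had a probe set of 1 gene, and all 26 were expressed, with a median of 0.01. In either direction 0 were past 1.5-fold (1.21% of all expressed genes were higher and 2.90% lower). The checkpoint kinase gene CHEK1 was highest, at 542 against 386 (0.48); 3 of its 4 probe sets lay above 0 and 1 was at -0.37. HIPK2, a kinase that phosphorylates p53 in the apoptotic response, was 1560 against 1218 (0.35), and all 10 of its probe sets lay above 0, the 7 above the limit between 0.08 and 0.50. Lowest were PPP1R13L, the p53 inhibitor iASPP, at 49.0 against 66.3 (-0.34), and TOPORS, a ubiquitin and SUMO ligase, at 312 against 383 (-0.28).

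Of 40 other p53 targets, 39 had a probe set of 1 gene and 34 were expressed. Of these, 1 was 1.5-fold higher (1.21% of all expressed genes were) and 2 were lower (2.90%). Their median was -0.01, with 17 above 0 and 17 below. KITLG, the ligand of the receptor KIT, was 206 against 115 (0.76), with its 3 other probe sets below the limit. BID, which links death receptors to mitochondria, was 299 against 210 (0.48), 243 against 151 (0.64) and 127 against 99.8 (0.31). FBXW7, a substrate receptor for the degradation of cyclin E and MYC, was 186 against 309 (-0.69), but a second probe set above the limit was 92.6 against 96.4. SUSD6, a membrane protein, was 239 against 386 (-0.66) by its 1 probe set.

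The third list holds cell cycle genes that p53 lowers through p21 and the DREAM repressor complex, which sits on the promoters of genes for replication and mitosis. Of 30 listed, 29 had a probe set of 1 gene, and all 29 were expressed, 11 above 0 and 18 below. Their median was -0.05 beside -0.03 for all expressed genes. None was 1.5-fold higher (against 1.21% of all expressed genes), and 1 was lower (against 2.90%): CDC25A, the phosphatase that activates CDK2, at 138 against 218 (-0.60), with its other probe sets below the limit and of both signs. FOXM1, a transcription factor of mitotic genes, was 669 against 850 (-0.34). The highest were CHEK1, which is on the upstream list as well, and LMNB1, lamin B1, at 1318 against 959 (0.45).

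**Figure D4:**
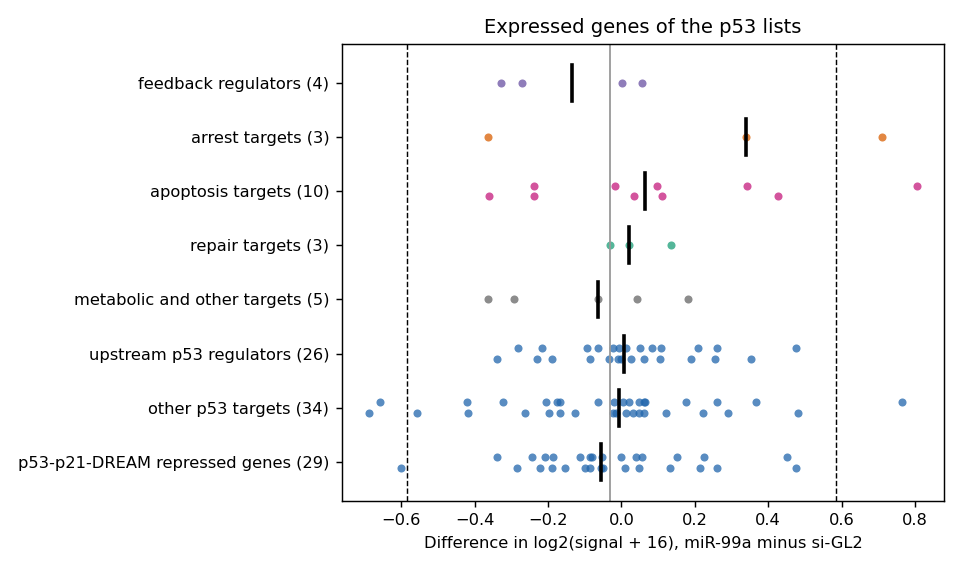
Difference in log2(signal + 16), miR-99a minus si-GL2, of each expressed gene by role and for 3 further p53 lists, with the number of genes in brackets; black bars are list medians, the grey line is the median of all expressed genes (-0.03) and dashed lines mark 1.5-fold. Arrest targets have the highest median, 0.34 from 3 genes, and the 3 large lists lie between -0.05 and 0.01.

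Promoter sequences were looked at because AEN and CDKN1A were the members past 1.5-fold. RefSeq windows (GRCh38.p14) from 250 bases before to 50 after the start site were found for 24 of the 30 genes. They were searched on both strands for a single p53 decamer and for GGGCGG, the GC box bound by Sp1-type factors. The decamer (the p53 decamer below) is only 1 part of a p53 site, so a match is not a full site. The p53 decamer was present in 3 of 24 windows (12.5%), those of AEN, PLK2 and FDXR, against 6.54% of 27305 windows of all genes. GGGCGG was in 20 of 24 (83.3%) against 44.6%. The core promoter element TATAAA was in 1, that of GDF15, against 12.0%. The 27305 windows were not limited to genes with a probe set or to expressed genes. These shares therefore do not compare like sets, and none was shown to be particular to p53 genes. The bases before the start site are printed for AEN and PLK2, which hold a p53 decamer, and for CDKN1A, which holds none in this window and whose known p53 elements lie farther upstream. They read from 5′ to 3′ along the gene, and capitals mark the matches.
AEN (chr15:88621090-88621339, plus strand): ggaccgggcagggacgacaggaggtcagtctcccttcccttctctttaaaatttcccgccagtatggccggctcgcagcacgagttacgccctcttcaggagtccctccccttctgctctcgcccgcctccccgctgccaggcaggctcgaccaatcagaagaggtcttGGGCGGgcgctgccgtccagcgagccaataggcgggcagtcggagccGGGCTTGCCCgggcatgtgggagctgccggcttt
PLK2 (chr5:58460087-58460336, minus strand): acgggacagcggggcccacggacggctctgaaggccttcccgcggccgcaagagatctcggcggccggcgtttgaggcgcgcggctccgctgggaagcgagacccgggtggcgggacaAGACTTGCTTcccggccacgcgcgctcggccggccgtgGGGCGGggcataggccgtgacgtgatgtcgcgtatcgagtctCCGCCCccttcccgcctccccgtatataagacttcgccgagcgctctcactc
CDKN1A (chr6:36678464-36678713, plus strand): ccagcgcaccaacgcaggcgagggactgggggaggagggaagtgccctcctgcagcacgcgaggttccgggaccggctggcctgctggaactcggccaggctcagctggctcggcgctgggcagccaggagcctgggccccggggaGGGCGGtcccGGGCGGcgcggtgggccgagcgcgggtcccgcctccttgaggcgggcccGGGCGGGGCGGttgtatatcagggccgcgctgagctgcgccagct

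In AEN the p53 decamer is GGGCTTGCCC, which begins at position -34 from the start site, and the same letters occur in the window of FDXR. In PLK2 it is AGACTTGCTT, beginning at position -132. CDKN1A holds 4 matches to GGGCGG, of which the last pair overlap by a base. AEN holds 1 match to GGGCGG and PLK2 holds 2. The 2 measured genes with a p53 decamer were at 0.81 and 0.34, and the first of these, AEN, had prompted the search. Members whose windows hold none included CDKN1A at 0.71, FAS at 0.43 and ZMAT3 at -0.36. A relation between the decamer and the difference was not tested. A match of letters is a description and does not show that a factor was bound.

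The depth of such a design is the number of arrays, and 2 arrays set the precision of every value above. The arrays were alike over all 54675 probe sets (Pearson r of 0.988 across probe sets, which are not replicates). Markers of the labelled cell type were present on both: KLK3, prostate-specific antigen, was at 6180 and 6783, and all 7 prostate luminal markers with a probe set were expressed. Of 21 markers of leukocytes, stroma, endothelium and basal epithelium with a probe set, 10 reached the limit, as did 12218 of all 19775 genes. Of these 10, 0 differed by 1.5-fold (1.21% of expressed genes were higher and 2.90% lower). Of the leukocyte markers, CD3E was at 73.2 against 52.8 and CSF1R at 59.2 against 74.3, while PTPRC stayed below the limit at 39.5 against 22.5. Of 6 stroma markers 5 reached the limit, the collagen gene COL1A1 at 230 against 233. The endothelial markers PECAM1 and ROBO4 were at 194 against 167 and at 112 against 122. The basal marker ITGB4 was at 46.5 against 52.6, and the basal keratins KRT5 and KRT14 were below the limit. The cultures were of 1 established line, and what gave these marker signals was not tested. A gene called expressed here is only one whose signal reached the limit. By their brightest probe sets, AEN (184 against 98.6) and FAS (119 against 84.5) lay between CD3E and PECAM1 on both arrays.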

How the data were processed

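Per the labels' protocols, total RNA was extracted with a phenol reagent and labelled with biotin. The authors deposited linear intensities, 1 for each probe set on each array, which were used unchanged; how probes were summarised and arrays scaled is not given in the sources used here. The array medians were 47.8 after miR-99a and 47.4 after si-GL2. Genes were named through the platform annotation: 41091 probe sets carry 1 gene, 1801 several, 62 are controls and 11721 are unnamed; 41037 matched the GRCh38.p14 gene table by Entrez ID and 0 symbols changed. Differences are of log2(signal + 16), computed here from the deposited intensities. With 1 array per group no test was run, and 1.5-fold is a rule of size. The counting of fold calls was checked on simulated data with planted 2-fold changes. The noise there was set and not taken from replicates, so this does not show how reliable the calls are.

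Members and lists were chosen with earlier results of these data known. All 30 members are named; of each further list, the 2 highest and 2 lowest expressed genes are named. Alternatives were pseudocounts of 1 and 64, centring, quantile normalization, no level limit, a limit at the 75th percentile, other ways to represent a gene, no _x_ or _s_ probe sets, and 2-fold. Markers, and genes under other observations, were chosen for their role or after their values were seen. Python 3.11.15, numpy 2.4.6, pandas 2.3.3 and matplotlib 3.10.9 were used.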

Additional observations from a re-analysis of the deposited data

Results flagged for a closer look

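A probe set outside the comparison of genes held a signal above that of the control array. The annotation gives it jointly to BBC3, the BH3-only protein PUMA and a main mediator of p53-induced apoptosis, and to the microRNA genes MIR3190 and MIR3191. Its signal was 395 with miR-99a and 255 in the control, which is 0.60 on the log2 scale or 1.52-fold. That is only just past 1.5-fold (0.58 on this scale), and the probe set carries the _s_ mark. Its value under other pseudocounts was not computed. Which of the 3 genes gave the signal was not tested. With this probe set counted for BBC3, a choice made after seeing the data, 3 of 26 expressed members were 1.5-fold higher and 0 lower. Of all expressed genes, 1.22% were higher and 2.90% lower under this setting. The median over the cell death genes was then 0.10.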

How the results depend on the processing

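With 1 array per group, no alternative carries a replicate error, and signal over background could not be judged without detection calls. AEN and CDKN1A have 1 probe set each, so only pseudocounts, centring and quantile normalization could move their values; under these 4 alternatives AEN lay between 0.61 and 0.90 and CDKN1A between 0.66 and 0.75, past 1.5-fold. With the limit at the 75th percentile, which leaves out AEN, 1 of 16 member genes was 1.5-fold higher (0.943% of all genes tested were). By second brightest probe sets it was 1 of 11 (FAS at 0.66, against 1.71%). Without _x_ and _s_ probe sets it was 0 of 15 (against 1.27%), and at 2-fold 0 of 25 (against 0.139%). The number lower stayed 0 under every alternative, where between 0.336% (at 2-fold) and 3.76% (pseudocount of 1) of all genes tested were lower. Of probe sets, 2 were higher and 0 lower with a pseudocount of 64, and 1 and 0 with the limit at the 75th percentile. Without _x_ and _s_ probe sets 0 were higher, at 2-fold 0 were higher and 0 lower, and 3 were lower with no limit on level. For these probe set counts, the share over all probe sets was not computed. Medians moved by more than the SD between probe sets of a gene, 0.13, in these cases. Arrest targets were at 0.039 with no limit on level, 0.17 with the limit at the 75th percentile and -0.012 without _x_ and _s_ probe sets. Metabolic and other targets were at 0.094 after quantile normalization and 0.24 by second brightest probe sets, by which all members and the cell death genes were both at 0.205. Feedback regulators were at 0.0025 without _x_ and _s_ probe sets, where MDM2 was at 0.17. The other 104 summary values stayed within 1.5 times (counts) or within that SD (medians). Fewer genes were tested with stricter limits, second probe sets and without _x_ and _s_ ones. Quantile normalization took ZMAT3 from -0.36 to 0.32. The median of metabolic and other targets thereby passed from the value of GDF15 (-0.06) to that of TIGAR (0.094). For the remaining shifts the cause was not tested. No paired analysis was possible because each group holds 1 array.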

Other observations

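Some genes of the wider p53 lists were described neither by the rule for named genes nor above; they were chosen after their values were seen. TP53TG1, a long non-coding RNA induced by p53, was 313 after miR-99a and 468 after si-GL2 (-0.56), 275 against 434 (-0.63) and 260 against 441 (-0.73), so all 3 probe sets were lower. SESN2, the sestrin that stress induces most widely, was 250 against 190 (0.37) and 146 against 95.4 (0.54), whereas SESN1 was at -0.29.

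The decoy receptors bind TRAIL without passing on a death signal. TNFRSF10D was 152 against 210 (-0.42) by its brightest probe set and 65.3 against 50.6 (0.29) by the other. TNFRSF10C was below the level limit with all 4 probe sets. BCL2L1, which encodes the survival protein BCL-XL, was 517 against 696 (-0.42) by its brightest probe set and 98.9 against 96.3 and 101 against 82.4 by dimmer ones.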
